A study of Homo sapiens with 6 samples.

Results

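The genes described are 10 that encode the ubiquitin-like modifier ISG15, the enzymes that attach it to proteins and remove it, and the PARP9-DTX3L ubiquitin ligase with related PARP enzymes. They were chosen by name, with earlier results of these data known, so their shares beside all genes are descriptive. The genes are ISG15, USP18, UBE2L6, HERC5, HERC6, PARP9, PARP10, PARP12, PARP14 and DTX3L. Where a gene has several probe sets the one brightest on average stands for it. All 10 were measured, out of 18417 genes in the table, and each had 1 probe set that names it alone. RNA was measured on 6 Affymetrix arrays, 1 for each pairing of a cell line with an siRNA. A673 and SK-N-MC are established cell lines of Ewing sarcoma, a cancer of bone and soft tissue, and both were grown in the same serum-containing medium. Control cells of each line were transfected with an siRNA that silences no gene; the other cultures received siDKK2, aimed at the secreted Wnt modulator DKK2, or siITM2A, aimed at the membrane protein ITM2A and included as an independent knock-down. The labels number the DKK2 siRNA 1 in both lines and the ITM2A siRNA 7 in A673 but 1 in SK-N-MC. Every culture, controls included, had therefore been given an siRNA, and no array of untransfected cells was analysed here.

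ISG15 is made in quantity when cells respond to interferon and is joined to target proteins in the same stepwise way as ubiquitin. UBA7 activates it, UBE2L6 carries it, HERC5 is the main ligase in human cells, and USP18 takes it off again and also restrains the interferon receptor. PARP9 and DTX3L form a complex that joins ADP-ribosylation to ubiquitin transfer, and PARP10, PARP12 and PARP14 add single ADP-ribose units to proteins; most of these genes are known targets of interferon.

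The promoters of the 10 genes are shown first, and whether their motifs bear on the array differences was not tested. RefSeq start sites (GRCh38.p14) gave windows of 250 bases before to 50 after the start for 8 of the 10 genes; USP18 and PARP10 had no entry. The interferon-stimulated response element, a promoter motif of interferon-induced genes, was searched on both strands as GAAA, any 2 bases and GAAA again. It was present in 6 of the 8 genes with a window, against 4.38% of 27305 genes in the same table. The stretches that hold it are given 5′ to 3′ on the strand of the gene, with the matches in capitals; those of HERC5, PARP9 and PARP12 read as the reverse complement. They lie at chr1:1013364-1013419 on the plus strand (ISG15), chr4:88456974-88457074 on the plus strand (HERC5), chr3:122564312-122564361 on the minus strand (PARP9), chr3:122564312-122564341 on the plus strand (DTX3L), chr3:122680790-122680838 on the plus strand (PARP14) and chr7:140062952-140062981 on the minus strand (PARP12).
ISG15: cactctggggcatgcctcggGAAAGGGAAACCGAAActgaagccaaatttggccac
HERC5: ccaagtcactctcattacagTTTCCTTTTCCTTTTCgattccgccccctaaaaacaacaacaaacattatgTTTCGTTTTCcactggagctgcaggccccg
PARP9: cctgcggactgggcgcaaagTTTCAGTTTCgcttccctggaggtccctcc
DTX3L: ggagggacctccagggaagcGAAACTGAAA
PARP14: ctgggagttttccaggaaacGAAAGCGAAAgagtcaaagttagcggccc
PARP12: tttcgccggcccggggccgcTTTCGGTTTC
ISG15 held 2 overlapping matches that begin 113 and 107 bases before the start, and HERC5 held 3, of which 2 overlap and the third begins 74 bases before the start. PARP9 and DTX3L are neighbours that are read in opposite directions, and the 1 match found for each is the same 10 bases, chr3:122564332-122564341, which begin 41 bases before 1 of the 2 PARP9 starts and 6 bases before the DTX3L start. In PARP14 the match begins 29 bases before the start, and 40 bases before it begins the only match among the 8 genes to the gamma-activated sequence TTCNNNGAA; that motif, which does not overlap the response element there, was in 9.38% of genes. UBE2L6, with 2 starts, and HERC6 had no match to either motif in these windows. A match is a run of letters and not a measured binding site.

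Each target stood lower where its siRNA was given: DKK2 stood at 53.0% of the control level in A673 cells and 35.1% in SK-N-MC cells with siDKK2, and ITM2A at 8.86% and 9.55% with siITM2A. The array medians were 3.35 to 3.44 on the log2 scale over 33297 probe sets. The deposited values had been normalized between arrays by RMA, so these medians do not measure depth of signal. All 6 measured Ewing sarcoma markers stood above the median gene on every array, while 0 of 5 markers of T and B cells and 0 of 3 of plasmacytoid dendritic cells did. Of 5 macrophage markers 1 did, and that list's summed log2 level was 15.8, 14.2 and 15.1 in A673 with control, siDKK2 and siITM2A, and 13.4, 12.8 and 13.5 in SK-N-MC. The macrophage gene above the median was CD68, at 6.41 on the A673 control array and 5.11 with siDKK2, while CD14, CD163, CSF1R and LYZ stayed between 1.81 and 2.88. Of the 5 fibroblast markers 2 or 3 stood above the median gene, with summed log2 levels of 21.2, 19.9 and 21.6 in A673 with control, siDKK2 and siITM2A, and 23.4, 24.9 and 23.6 in SK-N-MC. COL1A1 of that list stood at 7.21, 6.24 and 7.23 in A673, and IL3RA of the dendritic cell list at 3.29, 2.44 and 2.59. The part of these markers in the results was not tested. Array values come from whole cultures, so fewer expressing cells and less RNA per cell cannot be told apart.

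With siDKK2 the ISG15 and PARP9-DTX3L genes had a median log2 difference from control cells of -1.92 in A673, against -0.04 over all genes. In SK-N-MC the median difference was -0.49, against -0.01 over all genes. In A673 9 of the 10 genes were at least 2-fold lower, UBE2L6 being the exception, where 0.728% of all genes were; in SK-N-MC 0 of 10 were, where 0.201% of all genes were. Lower values in both lines were found for 8 of 10 genes, against 31.6% of all genes. In the fit over both lines 0 of 10 passed the threshold (limma, Benjamini-Hochberg adjusted p of 0.213 to 0.969), where 0.0109% of all genes passed in the downward direction; 8 of 10 had an unadjusted p under 0.05 and were lower, against 5.71% of all genes. The fit tests the mean difference over both lines, with the scatter of the siRNA differences between the lines as its error. Each line had 1 array per siRNA, so the difference in size between the lines could not be tested.

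**Figure D1:**
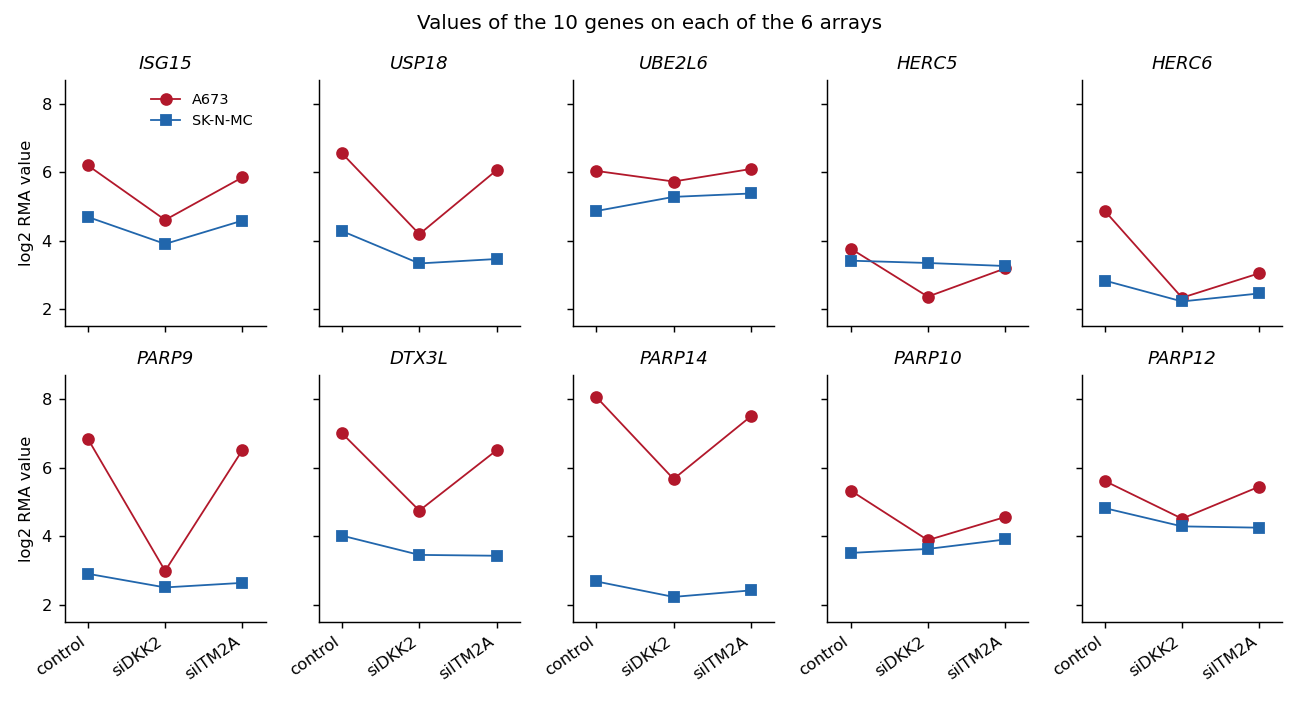
Log2 RMA value (vertical axis) of the 10 genes on the 6 arrays, by siRNA (horizontal axis), with 1 point per array; circles are A673, squares SK-N-MC, and lines join arrays of 1 cell line. The siDKK2 array is the lowest of the A673 arrays in every panel, and PARP9 stands at 6.84 with control and 2.98 with siDKK2.

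ISG15, the modifier itself, had log2 values of 6.20 on the A673 control array, 4.60 with siDKK2 and 5.85 with siITM2A. In SK-N-MC the ISG15 values were 4.69, 3.90 and 4.58. The siDKK2 array was the lowest in each line, and the A673 siDKK2 array (4.60) lay below the SK-N-MC control array (4.69), so the lines overlapped. ISG15 was 3.02-fold lower with siDKK2 in A673 cells and 1.73-fold lower in SK-N-MC, and the fitted difference was -1.19 ± 0.19 (SE, n = 2 lines; limma adjusted p = 0.213), the lowest adjusted p of the 10 genes in this comparison.

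USP18, the protease that removes ISG15, had log2 values of 6.55, 4.19 and 6.06 in A673 with control, siDKK2 and siITM2A. In SK-N-MC they were 4.28, 3.33 and 3.46. With siDKK2 USP18 was thus 5.13-fold lower in A673 cells and 1.92-fold lower in SK-N-MC (-1.65 ± 0.34, SE, n = 2 lines; limma adjusted p = 0.288). It was the member with the largest fold in SK-N-MC, and in that line the siITM2A array was nearly as low as the siDKK2 array. The SK-N-MC siDKK2 value lay below the median of that array, 3.39. Background was not measured, so the USP18 fold in SK-N-MC may be set by the floor. A second probe set is annotated to USP18 together with its pseudogene USP41P, whose near-identical sequence it cannot tell apart. That shared probe set gave 9.0, 5.80 and 8.17 in A673 cells and 5.41, 5.19 and 5.07 in SK-N-MC, a difference with siDKK2 of -3.20 in A673 cells and -0.22 in SK-N-MC. The larger difference in A673 was thus seen on both probe sets, and the SK-N-MC difference was smaller on the shared one.

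UBE2L6, the carrier enzyme that passes ISG15 to its ligases, was the exception in the group. Its log2 values were 6.04, 5.73 and 6.09 in A673 with control, siDKK2 and siITM2A and 4.87, 5.28 and 5.38 in SK-N-MC. With siDKK2 it differed by -0.31 in A673 cells and 0.41 in SK-N-MC, and the fitted difference was 0.05 ± 0.18 (SE, n = 2 lines; limma adjusted p = 0.969). The UBE2L6 values spanned less in A673 (5.73 to 6.09) than those of any other of the 10 genes, and every A673 array lay above every SK-N-MC array.

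HERC5, the principal ISG15 ligase of human cells, was dim throughout. It stood at 3.77, 2.36 and 3.19 in A673 cells and at 3.41, 3.35 and 3.26 in SK-N-MC. In A673 it was 2.65-fold lower with siDKK2, while the 3 SK-N-MC arrays lay close together (3.26 to 3.41), and the fitted difference was -0.74 ± 0.27 (SE, n = 2 lines; limma adjusted p = 0.508). HERC6, its neighbour on chromosome 4 and a ligase whose mouse counterpart attaches ISG15, had log2 values of 4.87, 2.33 and 3.05 in A673 cells and 2.83, 2.22 and 2.46 in SK-N-MC. HERC6 was 5.80-fold lower with siDKK2 in A673 cells and 1.53-fold lower in SK-N-MC (-1.57 ± 0.37, SE, n = 2 lines; limma adjusted p = 0.316). Of the 10 genes it alone was also past 2-fold with siITM2A in A673. The A673 siDKK2 values of both ligase genes were near the lower quartile of that array, 2.34; background was not measured.

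PARP9, an inactive or weakly active PARP that binds DTX3L, showed the largest difference of the 10. Its log2 values in A673 were 6.84 with control, 2.98 with siDKK2 and 6.51 with siITM2A. In SK-N-MC they were 2.90, 2.50 and 2.63. The A673 siDKK2 array stood close to the SK-N-MC arrays, while the other A673 arrays stood far above them. PARP9 was 14.5-fold lower in A673, leaving 6.91% of the control level, and 1.32-fold lower in SK-N-MC (-2.13 ± 0.70, SE, n = 2 lines; limma adjusted p = 0.461). The A673 siDKK2 value lay below the median of that array, 3.35, while the highest T and B cell marker stood at 2.61 there. Background was not measured, so the fold and the percent left hold for RMA values only and may be set by the floor, as may every PARP9 difference in SK-N-MC.

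DTX3L, the ubiquitin ligase partner of PARP9, had log2 values of 7.0, 4.74 and 6.51 in A673 cells and 4.01, 3.45 and 3.43 in SK-N-MC. The siDKK2 array was the lowest in A673 but not in SK-N-MC, where the siITM2A array was as low. With siDKK2 DTX3L was 4.78-fold lower in A673 cells and 1.48-fold lower in SK-N-MC (-1.41 ± 0.37, SE, n = 2 lines; limma adjusted p = 0.359).

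PARP14, a macrodomain-bearing mono-ADP-ribosyltransferase named as a STAT6 cofactor, stood at 8.06, 5.67 and 7.50 in A673 cells and at 2.68, 2.22 and 2.41 in SK-N-MC, where all 3 arrays were below the median of their probe sets. PARP14 was 5.26-fold lower with siDKK2 in A673 cells and 1.37-fold lower in SK-N-MC (-1.42 ± 0.38, SE, n = 2 lines; limma adjusted p = 0.378). PARP15, the gene that lies between DTX3L and PARP14 in the RefSeq order, was between 1.87 and 2.05 on all 6 arrays. With siDKK2 it differed by 0.18 in A673 cells and 0.05 in SK-N-MC. Its values lay below the lower quartile of every array (2.33 to 2.38), so a lower level could not have been seen.

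PARP10, a mono-ADP-ribosyltransferase that binds MYC, stood at 5.33, 3.88 and 4.56 in A673 cells and at 3.51, 3.63 and 3.90 in SK-N-MC. It was 2.73-fold lower with siDKK2 in A673 cells and 1.08-fold higher in SK-N-MC (-0.67 ± 0.31, SE, n = 2 lines; limma adjusted p = 0.60). PARP12, a zinc-finger PARP that restricts some viruses, stood at 5.61, 4.51 and 5.45 in A673 cells and at 4.82, 4.28 and 4.25 in SK-N-MC. It was 2.15-fold lower in A673, the smallest of the folds past 2 there, and 1.45-fold lower in SK-N-MC (-0.82 ± 0.21, SE, n = 2 lines; limma adjusted p = 0.353). Across the group the A673 difference thus ran from -0.31 (UBE2L6) to -3.86 (PARP9), and the SK-N-MC difference from 0.41 (UBE2L6) to -0.94 (USP18).

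**Figure D2:**
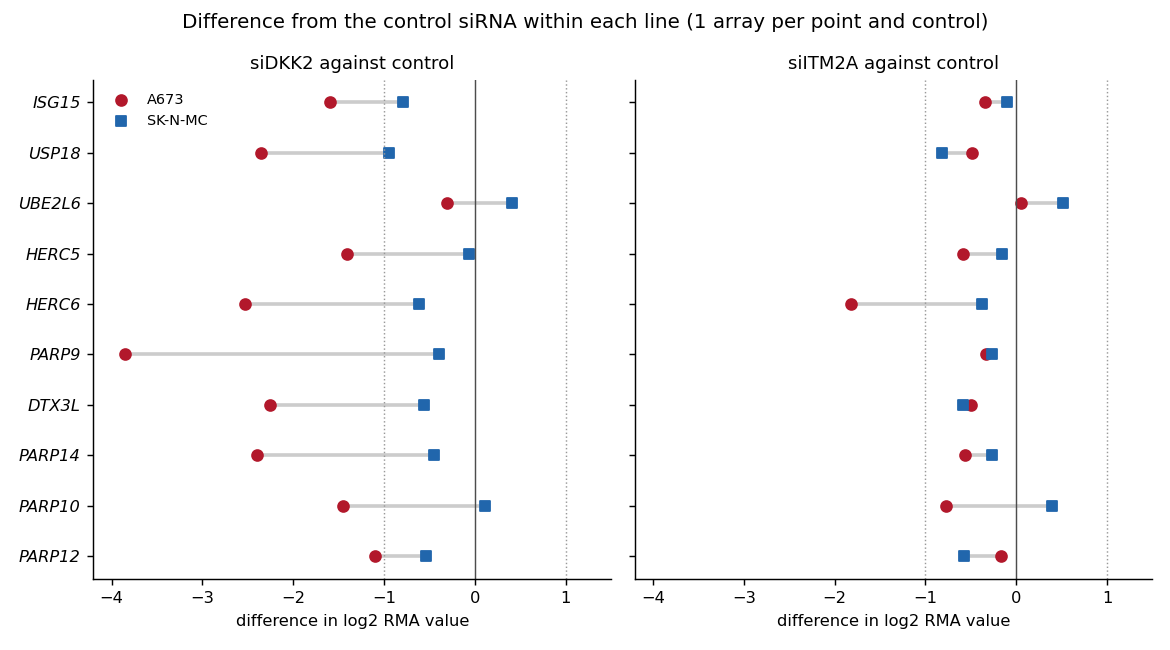
Difference from the control array of the same line in log2 RMA value (horizontal axis) for each gene (vertical axis), with siDKK2 on the left and siITM2A on the right; circles are A673, squares SK-N-MC, and dotted lines mark 2-fold. With siDKK2 9 circles lie beyond 2-fold and 0 squares do, and with siITM2A HERC6 in A673 (-1.82) is the 1 point beyond it.

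No gene of the 10 reached 2-fold in both lines with siDKK2 (0 of 10, against 0.0706% of all genes). At 1.5-fold, a size chosen with the values known, ISG15, USP18 and HERC6 did (3 of 10, against 0.418%). The siDKK2 array was the lowest of the 3 for 10 of 10 genes in A673, where it was for 38.3% of all genes, and for 5 of 10 in SK-N-MC, where it was for 33.7%. The A673 control array was the highest of the 6 for 9 of 10 genes, UBE2L6 being the exception, and for 20.4% of all genes. The size of the fitted difference depended on the arrays used. It had a median of -1.85 without the siDKK2 array of SK-N-MC and -1.63 without the control array of SK-N-MC. Those fits rest mainly on the A673 difference. They leave 1 array for an siRNA, whose own variation cannot be measured, so their calls are not given. The median difference was -0.48 without the A673 siDKK2 array and -0.82 without the A673 control array.

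With siITM2A the same genes lay closer to the control, with a median difference of -0.49 in A673 cells and -0.26 in SK-N-MC, against -0.04 and -0.01 over all genes. In the fit 0 of 10 passed (limma adjusted p of 0.688 to 0.973), where 0.0109% of all genes passed in the downward direction; 1 gene, HERC6, had an unadjusted p under 0.05 and was lower, against 4.43% of all genes. HERC6 was 3.53-fold lower in A673 cells and 1.30-fold lower in SK-N-MC (-1.10 ± 0.37, SE, n = 2 lines; limma adjusted p = 0.688). It alone was at least 2-fold lower in A673, where 0.239% of all genes were, and 0 of 10 were in SK-N-MC, where 0.076% were. PARP9, which differed most with siDKK2, was 1.26-fold lower in A673 cells and 1.20-fold lower in SK-N-MC. In SK-N-MC USP18 (-0.81), DTX3L (-0.59) and PARP12 (-0.57) differed from control by about as much as with siDKK2 (-0.94, -0.56 and -0.53); both comparisons use the same control arrays, so these are not separate results. Lower values in both lines were found for 8 of 10 genes, against 30.7% of all genes, and UBE2L6 stood higher in both (0.06 and 0.51). At 1.5-fold in both lines the count was 0 of 10, against 0.168%. Without the A673 control array the median difference turned to 0.05, and without the control array of SK-N-MC it was -0.90. It was -0.11 without the siITM2A array of SK-N-MC and -0.73 without that of A673.

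Set directly against siITM2A, siDKK2 had a median difference of -1.09 in A673 cells and -0.13 in SK-N-MC over the 10 genes, against 0.00 over all genes in each line. PARP9 was 11.5-fold lower with siDKK2 than with siITM2A in A673 cells and 1.10-fold lower in SK-N-MC (-1.83 ± 0.70, SE, n = 2 lines; limma adjusted p = 0.541). ISG15 was 2.37-fold and 1.60-fold lower (-0.96 ± 0.19, SE, n = 2 lines; limma adjusted p = 0.283) and was the 1 gene of the 10 past 1.5-fold in both lines, where 0.353% of all genes were. In A673 5 of 10 genes were at least 2-fold lower, ISG15, USP18, PARP9, PARP14 and DTX3L, where 0.505% of all genes were, and in SK-N-MC 0 of 10 were, where 0.168% were. In the fit 0 of 10 passed (limma adjusted p of 0.283 to 0.789), where 0.0109% of all genes passed in the downward direction, and 5 had an unadjusted p under 0.05 with lower values, against 4.35%. Lower values in both lines were found for 7 of 10, against 27.5%, and 2-fold in both for 0 of 10, against 0.0489%. In SK-N-MC HERC5 (0.09), PARP12 (0.04) and DTX3L (0.02) were not lower with siDKK2 than with siITM2A. Without the siDKK2 array of SK-N-MC the median difference was -1.19, and without the A673 siDKK2 array it was -0.03.

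Between the lines, A673 had the higher level of 8 of the 10 genes past the threshold, over all siRNAs: ISG15, USP18, UBE2L6, PARP9, PARP10, PARP12, PARP14 and DTX3L (limma, siRNA as a block), where 13.8% of all genes passed in that direction; 0 of 10 were lower in A673, where 14.7% of all genes were. PARP14 differed most, by 4.64 ± 0.31 on the log2 scale (SE, n = 3 arrays per line; limma adjusted p = 1.5e-05), and its lowest A673 value, 5.67, was above its highest SK-N-MC value, 2.68. PARP9 was higher by 2.77 ± 0.57 (limma adjusted p = 0.00648) and DTX3L by 2.45 ± 0.30 (limma adjusted p = 0.000413). USP18 was higher by 1.91 ± 0.28 and ISG15 by 1.16 ± 0.16 (limma adjusted p = 0.00111 and 0.000646). The remaining calls were smaller: PARP10 at 0.91 ± 0.25, UBE2L6 at 0.78 ± 0.15 and PARP12 at 0.74 ± 0.17 (limma adjusted p = 0.0265, 0.00391 and 0.0118). HERC6 differed by 0.91 ± 0.30 (limma adjusted p = 0.0548) and HERC5 by -0.23 ± 0.22 (limma adjusted p = 0.525). Every A673 array lay above every SK-N-MC array for UBE2L6, PARP9, PARP14 and DTX3L, 4 of 10 genes, against 18.1% of all genes. For HERC5 the A673 siDKK2 and siITM2A arrays (2.36 and 3.19) lay below every SK-N-MC array. For the others the A673 siDKK2 array lay within the range of the SK-N-MC arrays.

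The size of the gap went with the siRNA. In control cells all 10 genes stood higher in A673 (50.8% of all genes), 8 of them at least 2-fold (5.23%), with a median gap of 1.93 on the log2 scale against 0.01 over all genes. With siDKK2 9 of 10 stood higher (44.9%) but 2 at least 2-fold (4.77%), PARP14 and DTX3L, with a median gap of 0.47. With siITM2A 9 of 10 stood higher (45.4%), 6 at least 2-fold (5.34%), with a median gap of 1.23. The PARP9 gap was 3.94 with control, 0.48 with siDKK2 and 3.88 with siITM2A. The PARP14 gaps in the same order were 5.39, 3.44 and 5.08, those of ISG15 1.51, 0.70 and 1.26, and those of HERC6 2.03, 0.11 and 0.59. The SK-N-MC values of PARP9, PARP14 and HERC6 (2.90, 2.68 and 2.83 at most) and the A673 siDKK2 values of PARP9 and HERC6 were below the array medians, so the size of these gaps may be set by the floor. HERC5 was the 1 gene whose order turned, with a gap of 0.36 in control cells, -0.98 with siDKK2 and -0.07 with siITM2A. These gaps are of single arrays, and their difference between siRNAs could not be tested.

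**Figure D3:**
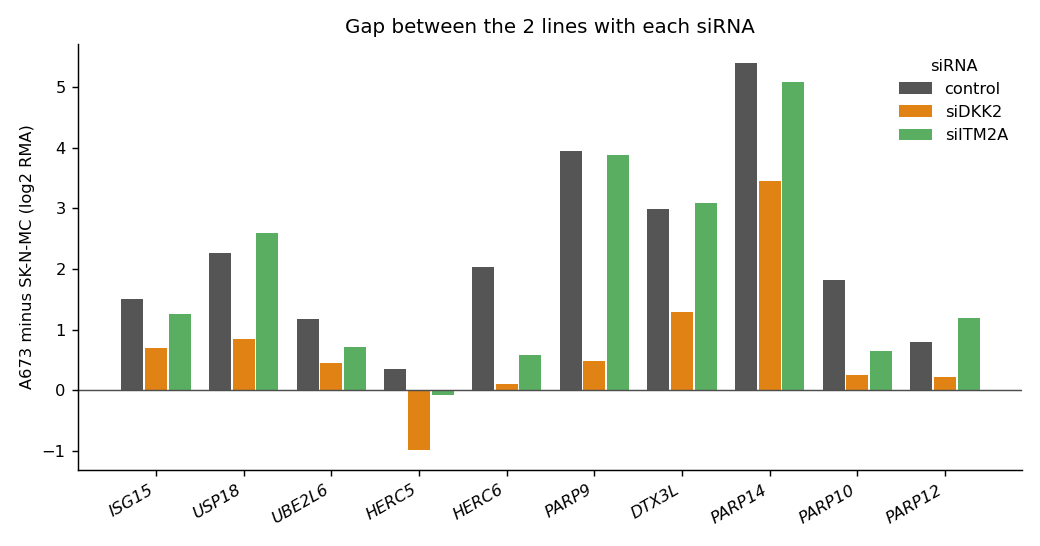
A673 minus SK-N-MC in log2 RMA value (vertical axis) for each of the 10 genes (horizontal axis), with 1 bar per siRNA, each from 1 pair of arrays. The siDKK2 bar is the shortest above 0 for every gene but HERC5, whose siDKK2 bar points down to -0.98, and PARP14 keeps a gap of 3.44.

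The count of line calls moved with the arrays used. Without either siITM2A array 5 of the 10 were called, ISG15, USP18, UBE2L6, PARP14 and DTX3L, where 3729 of 18417 genes were called in either direction (limma). Without either control array 7 were, PARP10 being lost, where 4595 genes were called. Without either siDKK2 array 9 were, HERC6 being added (limma adjusted p = 0.00994), where 4311 genes were called. Leaving out either array of a pair gives the same difference, because the block then sets the other aside.

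Other genes of these pathways were compared from lists of related enzymes. For scale, 5.71% of all genes were lower with siDKK2 at an unadjusted limma p under 0.05. At least 2-fold lower were 0.728% in A673 and 0.201% in SK-N-MC. Between the lines 13.8% of all genes passed as higher in A673 and 14.7% as lower (limma). Of the 10 further measured ISG15 pathway genes 0 passed with siDKK2 (limma, 2 lower at an unadjusted p under 0.05, TRIM25 and USP13), and their median difference was -0.11 in A673 cells and -0.25 in SK-N-MC. TRIM25, a ubiquitin ligase that activates RIG-I and is itself modified by ISG15, differed by -1.52 in A673 cells and -0.37 in SK-N-MC. UBA7, the activating enzyme for ISG15, differed by -0.34 and -0.38, from control levels of 3.14 and 3.59. USP13, a deubiquitinase, differed by -0.48 and -1.03 (-0.76 ± 0.16, SE, n = 2 lines; limma adjusted p = 0.288), the 1 gene of this list at least 2-fold lower in SK-N-MC. ITGB2, a chain of the integrin LFA-1 that free ISG15 can bind, differed by -0.24 and -0.31. Between the lines TRIM25 was higher in A673 by 1.16 ± 0.23 and ARIH1, a RING-between-RING ubiquitin ligase, by 0.33 ± 0.10, while USP13 was lower (-0.49 ± 0.13; limma adjusted p = 0.00487, 0.0414 and 0.0207).

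The other PARP genes centred near 0 with siDKK2. Over 13 other PARP genes the median difference with siDKK2 was 0.04 in A673 cells and 0.05 in SK-N-MC, 0 of 13 passed (limma, 1 lower at an unadjusted p under 0.05), and 1 was at least 2-fold lower in A673. That gene was ZC3HAV1, the antiviral zinc-finger protein also called PARP13, at -2.03 in A673 cells and -0.48 in SK-N-MC (-1.25 ± 0.31, SE, n = 2 lines; limma adjusted p = 0.335). TIPARP, a mono-ADP-ribosyltransferase induced by the aryl hydrocarbon receptor, differed by 0.17 in each line, and PARP11 by 0.09 and 0.23. Between the lines 3 of the 13 were higher in A673 cells and 4 lower (limma), namely TIPARP (1.57 ± 0.10), PARP8 (0.45 ± 0.13) and PARP4 (0.39 ± 0.11) on the higher side and PARP16 (-0.82 ± 0.11), PARP11 (-0.75 ± 0.15), PARP1 (-0.68 ± 0.11) and PARP6 (-0.45 ± 0.10) on the lower. ZC3HAV1 did not pass between the lines (0.01 ± 0.25).

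Enzymes that remove ADP-ribose, the other deltex ligases and the other HERC ligases gave 0 calls with siDKK2 among 8, 4 and 4 measured genes (limma, 0 at an unadjusted p under 0.05 in each). Their medians in A673 were -0.08, 0.07 and -0.05 and in SK-N-MC -0.01, 0.12 and 0.09. PARG, which cuts poly-ADP-ribose chains, differed by -0.31 in A673 cells and -0.35 in SK-N-MC, and MACROD1, a macrodomain hydrolase, by 0.49 and 0.13. DTX2 was the 1 deltex gene past 2-fold in A673 (-1.20, and 0.11 in SK-N-MC; named after its value was seen), and DTX1 differed by 0.27 and 0.14. HERC3 differed by -0.02 and -0.40. Between the lines, genes of these 3 lists that were higher in A673 were ENPP1 (1.51 ± 0.19), PARG (0.69 ± 0.14), DTX3 (1.09 ± 0.13) and DTX4 (0.58 ± 0.11), and those lower there were TATDN2 (-0.55 ± 0.14), HERC3 (-0.98 ± 0.12) and HERC4 (-0.90 ± 0.12), with limma adjusted p of 0.000312 to 0.0195.

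The machinery that conjugates other ubiquitin-like proteins had medians near 0. Over its 17 measured genes the median difference with siDKK2 was -0.08 in A673 cells and -0.19 in SK-N-MC, 0 of 17 passed (limma, 3 lower at an unadjusted p under 0.05) and 0 were 2-fold lower in either line. Ranked by the smaller of the differences in the lines, UBA3, the catalytic part of the NEDD8 activating enzyme, came first (-0.52 and -0.59, fitted -0.56 ± 0.13, limma adjusted p = 0.306). UBA6, a second ubiquitin activating enzyme, came next (-0.34 and -0.53). SENP8, the NEDD8 protease, differed by -0.68 and -0.27, and UFM1, the ubiquitin-fold modifier, by 0.18 and 0.31. Between the lines UFM1 and NAE1 were higher in A673 cells and UBA1, UBA3, UFC1, ATG5, URM1 and SENP6 lower (limma).

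Among 10 measured genes of interferon signalling that act with these enzymes 0 passed with siDKK2 (limma, 3 lower and 1 higher at an unadjusted p under 0.05), 1 was at least 2-fold lower in A673 cells and the same 1 in SK-N-MC, and the medians were -0.23 and 0.05. That gene was IRF9, a transcription factor of the interferon response, at -1.93 and -1.29 (-1.61 ± 0.17, SE, n = 2 lines; limma adjusted p = 0.0566). STAT6 differed by -0.59 and -0.29, the receptor chain IFNAR1 by -0.44 and -0.16, and the inhibitor SOCS1 by 0.51 and 0.30. IRF9 was higher in A673 than in SK-N-MC by 1.10 ± 0.14 (limma adjusted p = 0.000439), as were IRF1 by 0.84 ± 0.16 and IFNAR2 by 0.68 ± 0.11 (limma adjusted p = 0.00431 and 0.00224). Over the 66 measured genes of the 7 lists, 0 passed with siITM2A against control (limma). At an unadjusted limma p under 0.05, 2 were lower and 2 higher, where 4.43% of all genes were lower. With siDKK2 against siITM2A 0 passed (limma). At the same unadjusted p 7 were lower and 3 higher, where 4.35% of all genes were lower.

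**Figure D4:**
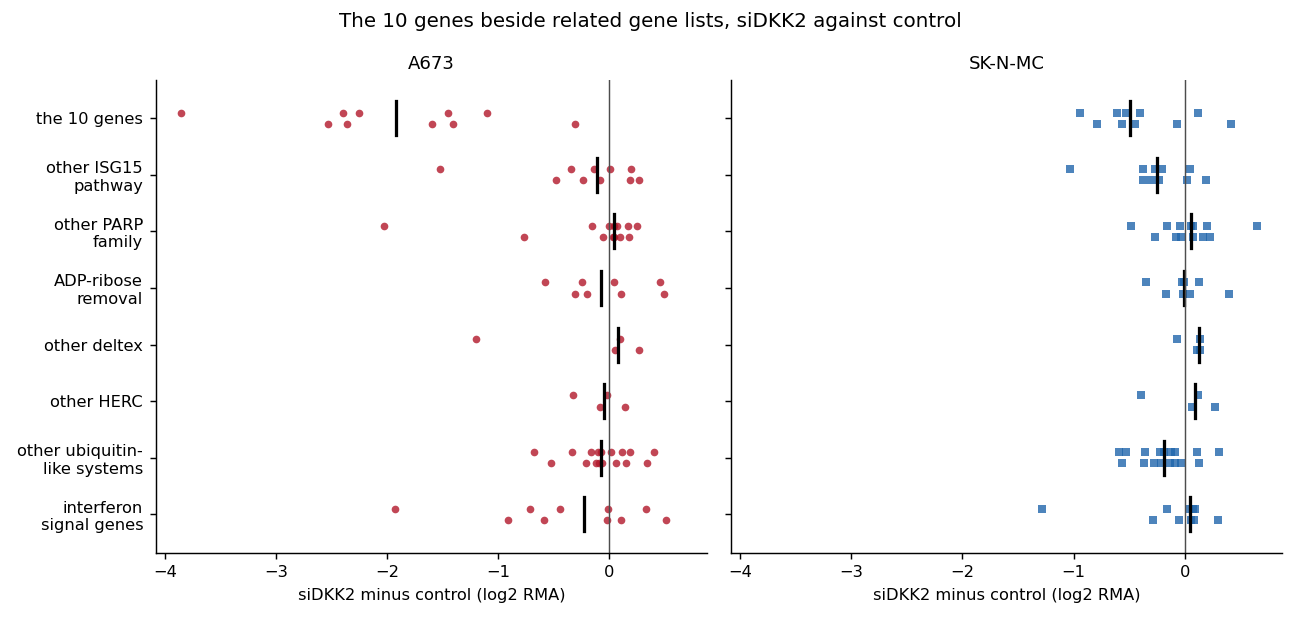
Difference with siDKK2 from the control array in log2 RMA value (horizontal axis) for the 10 genes and 7 lists of related genes (vertical axis), in A673 on the left and SK-N-MC on the right; each point is a gene from 1 pair of arrays and black bars are list medians. The median of the 10 genes is -1.92 in A673 cells and -0.49 in SK-N-MC, while the other list medians lie between -0.23 and 0.07 in A673 cells and between -0.25 and 0.12 in SK-N-MC.

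The genes most like the group in pattern were found by Pearson correlation over the 6 arrays with the mean of the 10 mean-centred profiles, among 3059 genes with a range of at least 1 on the log2 scale. That mean profile was 1.63 on the A673 control array, 1.08 with siITM2A and -0.30 with siDKK2, and -0.60, -0.82 and -0.98 in SK-N-MC, a profile that holds both the gap between the lines and the low siDKK2 array of A673. The 10 closest genes had r of 0.988 to 0.999: IFI16, ADCY7, PSMB8, CD274, OAS3, RIGI, TRIM21, TRIM25, DDX60 and IRF1. IFI16, a sensor of DNA, came first (r = 0.999), at 7.47, 6.04 and 6.99 in A673 cells and 5.89, 5.56 and 5.70 in SK-N-MC. CD274, which encodes the immune checkpoint ligand PD-L1, had 3.90, 2.68 and 3.74 in A673 cells and 2.33, 2.08 and 2.22 in SK-N-MC. PSMB8, a catalytic subunit of the immunoproteasome, stood at 5.28, 3.18 and 4.67 in A673 cells and at 2.47, 2.29 and 2.22 in SK-N-MC. For CD274, PSMB8 and DDX60 all SK-N-MC values and the A673 siDKK2 value lay below the array medians. Background was not measured, so their pattern and r may be set in part by the floor. The response-element letters were in the windows of 5 of these 10 genes, against 4.38% of 27305 genes. These genes were picked for their likeness to the group, and the part of the motif in the pattern was not tested.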

How the data were processed

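Biotin-labelled RNA was read on Affymetrix arrays that cover whole transcripts. The authors' deposited values are log2 RMA values, 1 for each probe set; Affymetrix Expression Console and RMA are named in the submitters' processing notes, and the log2 scale is read from the range of 1.02 to 13.4. Which version, settings and build were used is not given in the sources used here. RMA compresses dim differences. Probe sets were named through the platform annotation and Entrez numbers: 19460 had 1 symbol, 1754 several and 12083 were not listed; the highest-mean probe set per gene was kept (18417 genes, 0 symbols changed).

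Tests used limma 3.58.1 in R 4.3.3 (lmFit, eBayes) on all 6 arrays with siRNA and line as terms, Benjamini-Hochberg over all genes, threshold 0.05, with 2 residual degrees of freedom (8.28 after moderation). The labels pair arrays by cell line, and 5256 genes differed between the lines, so the line is the block. Nothing says that cultures were repeated. The p-values therefore set the mean difference against its scatter over lines, which may be technical. The labels give no batch. Members, lists and the naming rule were chosen with earlier results of these data known. The rule took all members, the list genes past the threshold in any comparison, and the 10 most alike in pattern. It also took up to 4 genes per list, given with values, that had the same sign in both lines with siDKK2. These were ranked by the smaller of their absolute differences in the lines. Alternatives: no block, an intensity trend, mean of probe sets, a filter on low values, centred arrays, only the arrays compared, each array left out, and 1.5-fold, added after seeing the data.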

Additional observations from a re-analysis of the deposited data

Results flagged for a closer look

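Opposite directions in the 2 lines, each from 1 array per siRNA and therefore not tested, marked a few of the genes. With siDKK2 against control UBE2L6 differed by -0.31 in A673 cells and 0.41 in SK-N-MC, and PARP10 by -1.45 and 0.12. PARP10 also differed in opposite directions with siITM2A, by -0.78 in A673 cells and 0.39 in SK-N-MC. With siDKK2 against siITM2A, HERC5 differed by -0.82 in A673 cells and 0.0881 in SK-N-MC, PARP12 by -0.94 and 0.0381, and DTX3L by -1.76 and 0.0248; these SK-N-MC values are small. No group held enough arrays for a search for single outlying arrays.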

How the results depend on the processing

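With arrays centred on their medians the median of the 10 genes was -1.27 with siDKK2 against control. The intensity trend cannot move a difference, and the mean of probe sets cannot move a gene with 1 probe set, as all 10 have. The filter on low values left out HERC5 and HERC6. No call among the siRNA comparisons changed without the replicate block (0 of 10 with it and without it); between the lines 6 of 10 were called without the replicate block against 8, PARP10 and PARP12 being lost, where 4844 genes were called against 5256. Over all genes siDKK2 against control gave 2 calls (limma), 0 without the replicate block, 7 with the intensity trend, 3 with centred arrays or the filter on low values, and 0 with only the arrays compared; siDKK2 against siITM2A gave 3, 0 without the block, 16 with the trend, 6 with the filter and 18 with only the arrays compared; and siITM2A against control gave 2 and, without the replicate block, 0. HERC6 was called between the lines with the intensity trend (limma adjusted p = 0.0280) and with centred arrays (0.0485). At 1.5-fold 3 genes were lower in both lines with siDKK2 against control, and 1 against siITM2A, each against 0 at 2-fold.

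Leaving out 1 array at a time gave 5 to 9 called genes between the lines. For the siRNA comparisons, leaving out an array of a compared group leaves 1 array in it, so medians are given in place of calls. The median ran from -1.85 to -0.48 with siDKK2 against control and from -1.19 to -0.03 for siDKK2 against siITM2A. The median with siITM2A ran from -0.90 to 0.0531. Signs turned for PARP10 (-1.35 to 0.0168) and UBE2L6 (-0.24 to 0.35) with siDKK2. With siITM2A they turned for ISG15 (-0.49 to 0.0336), HERC5 (-0.81 to 0.0726), PARP9 (-1.18 to 0.58), PARP10 (-0.88 to 0.49), PARP14 (-0.97 to 0.15) and UBE2L6 (-0.0105 to 0.58). For siDKK2 against siITM2A they turned for UBE2L6 (-0.48 to 0.0151), HERC5 (-0.93 to 0.19), HERC6 (-1.08 to 0.13), PARP10 (-0.97 to 0.0157) and DTX3L (-1.74 to 0.00151), and between the lines for HERC5 (-0.53 to 0.14). A fit without an array rests on the other line for that siRNA, and the lone array is assumed to vary like the rest. Signal over background could not be measured. That limits PARP9, PARP14, HERC5 and HERC6 in SK-N-MC, which stood at 3.41 or lower there, and USP18 there with siDKK2, at 3.33. It also limits PARP9, HERC5 and HERC6 in A673 with siDKK2, at 2.98 or lower.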
